A study of Mus musculus with 24 samples.

Results

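The response of CD11c+ cells to an antibody against PD-1 given together with the bacterium LGG was compared between genotypes. The mice were labelled as Myd88 knockout (KO) or wild-type (WT), and the labels call the cells dendritic cells. The quantity of interest was, for each gene, the change under this combination against control IgG in KO minus the same change in WT. It rests on 12 of the 24 libraries in the series, all of those labelled with these genotypes and treatments, whose 4 groups were also picked with the knowledge that their replicates spread little: KO combination, KO IgG, WT combination and WT IgG, with 3 libraries in each. The other 12 libraries, from mice given LGG alone or anti-PD-1 alone, served for 1 comparison near the end.

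Per the labels, all mice were C57BL/6 females that carried MC38 tumours, a mouse colon carcinoma line, on the flank. The protocols give them as 6 to 8 weeks old and injected with 1000000 tumour cells under the skin. Treatment started 7 to 10 days later at a mean tumour size of 100 mm3 and ran for 2 to 3 weeks. KO combination mice and WT combination mice received anti-PD-1 at 200 µg per animal by injection, 2 times a week, and live LGG by mouth. KO IgG mice and WT IgG mice received the control antibody on the same schedule and no bacteria. Both antibody and LGG therefore differ between combination and IgG, and their parts cannot be told apart in these 12 libraries. Cells were taken from the mesenteric lymph node, which drains the gut, with magnetic beads against CD11c. How the knockout was made and whether it reaches all cells is not given in the sources used here; the labels assign it to the mice as a whole. Whether the libraries of a group came from different animals is not stated in the labels, and the spread behind the p-values may be technical.

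Myd88 is the adaptor that carries signals from most Toll-like receptors and from the receptors for interleukin-1 and interleukin-18 to the kinases that activate NF-κB. Toll-like receptor 3, part of the signal of Toll-like receptor 4, the cytosolic nucleic acid sensors and the C-type lectins use other adaptors. Lactobacillus rhamnosus GG, or LGG, is a lactic acid bacterium whose cell wall and nucleic acids can engage several of these sensors, and dendritic cells that sense bacteria raise costimulatory molecules and cytokines and move to lymph nodes to prime T cells. Anti-PD-1 blocks an inhibitory receptor of activated T cells.

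Library depth lay between 24531528 (WT IgG replicate 3) and 49272593 (KO IgG replicate 1) reads on listed genes. Levels below are normalised counts, that is reads divided by a size factor per library, and changes are log2 changes after adding 1 to each normalised count, which understates the change of genes with few reads. Errors after a log2 value are standard errors of the linear model, with n = 3 libraries per group, and adjusted p-values are from limma. Genes with an adjusted p under 0.05 were called. Of the 12767 genes listed, 12695 with a mean of at least 10 were tested. Biological coefficients of variation were 0.0332 in KO combination, 0.0824 in KO IgG, 0.0599 in WT combination and 0.0515 in WT IgG. Small spread was part of how these groups were chosen and is no finding. The median standard deviation on the log2 scale was 0.379 in KO anti-PD-1 and 0.272 in KO LGG, which are not in this fit.

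Myd88 itself (chr9:119335934-119341411, mm10) was counted in all libraries. It had 748, 758 and 742 normalised counts in KO combination and 1327, 1349.7 and 1136 in KO IgG, against 1919, 1723 and 1819.8 in WT combination and 1970.2, 1774 and 1957 in WT IgG. The KO libraries were below all WT libraries under both treatments. Myd88 fell under the combination in KO (log2 change -0.76), while the WT change of -0.06 did not pass (adjusted p = 0.428, limma). Counts summed over all exons of Myd88 do not reveal a deletion within it, and the genotype is taken from the labels. The sex label could not be matched to all libraries: the Y-linked helicase gene Ddx3y had 1473 to 1559 normalised counts in KO combination and 1482 to 1853 in KO IgG, against 0 to 4.50 in WT combination and 0.903 to 2.26 in WT IgG. Eif2s3y, Kdm5d and Uty showed the same split. Sex or the origin of the mice therefore cannot be told apart from genotype, neither for levels nor for the difference in effect.

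The combination moved the transcriptome of WT cells further than that of KO cells. In KO combination against KO IgG, 7541 genes were called, 3976 up and 3565 down, and in WT combination against WT IgG 9388 were called, 4661 up and 4727 down. Changes exceeded 2-fold for 1390 genes in KO and for 3181 in WT, and the standard deviation of the log2 change over all genes was 0.65 in KO and 1.18 in WT. The changes of the same gene in KO and in WT were related across genes (Pearson r = 0.58, Spearman rho = 0.545, over 12695 genes that are not independent), with a slope through the origin of 0.32 for KO on WT. The first principal component of the 12 libraries held 71.5% of the variance. On it KO combination lay at -28.7 to -25.5 and KO IgG at -78.5 to -71.7, against 106.6 to 109 for WT combination and -6.3 to -3 for WT IgG. Both genotypes shifted in the same sense along this axis, and WT shifted further.

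The effect of the combination differed between the genotypes for 7371 genes, or 58.1% of those tested. In 4007 genes (31.6%) the difference was positive, so that the combination raised the gene more or lowered it less in KO, and in 3364 (26.5%) it was negative. A difference tested to exceed 2-fold was found for 1040 genes (8.19%), of which 638 (5.03%) were positive and 402 (3.17%) negative. The median difference over all genes tested was 0.04. These shares are the background against which every gene group below is to be read. For the other comparisons the background is 59.4% called in KO, with 31.3% up and 28.1% down, and 74% in WT, with 36.7% up and 37.2% down. KO against WT differed for 76.1% of genes under the combination, with 39.5% higher and 36.6% lower in KO, and for 65.1% under IgG, with 33.3% higher and 31.8% lower.

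**Figure D1:**
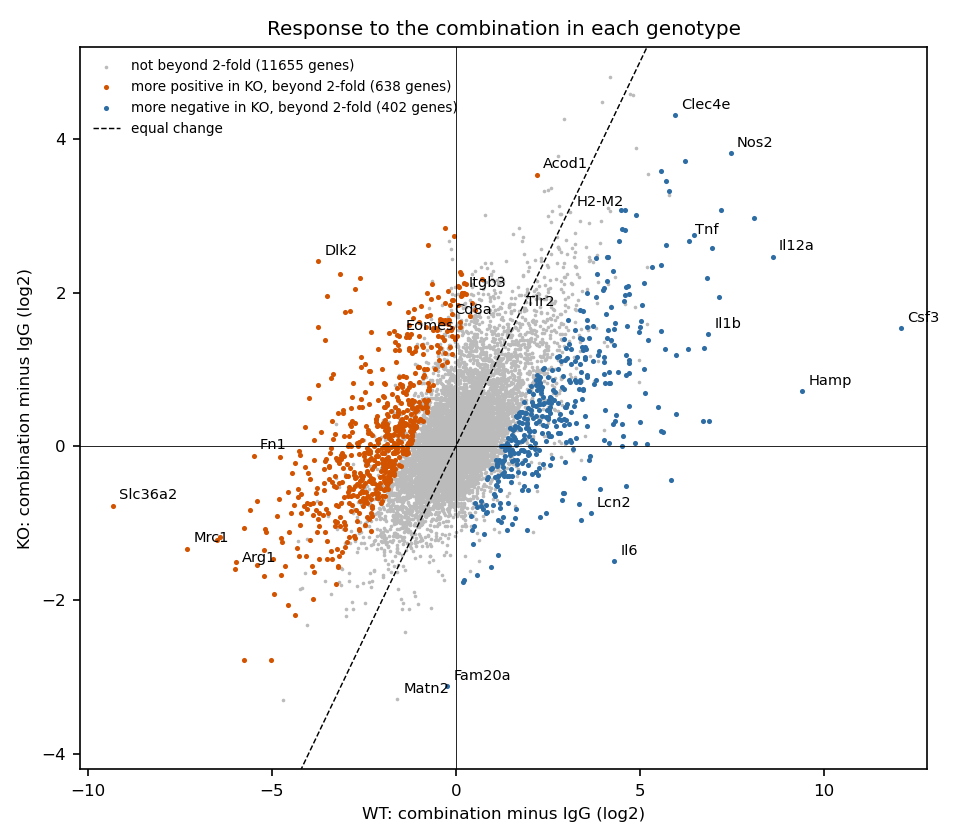
Log2 change under the combination against IgG for each of 12695 genes, in KO on the vertical axis and in WT on the horizontal axis, with the dashed line marking equal changes. Orange points are the 638 genes with a difference tested to exceed 2-fold upward in KO relative to WT, blue points the 402 with one downward, and grey points all others. The cloud is flatter than the dashed line, and Csf3, Hamp and Il6 at the right lie far below it.

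Most of the genes with a called difference changed less in KO or had no call there. Among them, 1072 rose in both genotypes but less in KO, with a median change of 0.59 in KO and 1.47 in WT. A further 1238 fell in both but less in KO, with medians of -0.45 in KO and -1.26 in WT. Another 1179 had no call in KO and rose in WT, and 1277 had no call in KO and fell in WT. Opposite movements were found for 458 genes that fell in KO and rose in WT and for 664 that rose in KO and fell in WT. Larger movements in KO were rarer, with 274 genes that rose in both more in KO, 135 that fell in both more in KO, 518 that rose in KO alone and 468 that fell in KO alone. Here alone means no call in WT, while the difference itself was called. In terms of levels, 2196 of the 7371 genes (29.8%) differed between KO and WT under the combination but had no call under IgG. A further 3092 (41.9%) differed in the same direction under both treatments, 1014 (13.8%) in opposite directions, and 993 (13.5%) under IgG alone.

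The promoters of 5 genes are shown because their genes stand for the main patterns that follow: Il6, Cxcl1 and Hamp for rises missing or weak in KO, Isg15 for interferon response genes that rose less in KO, and Nfkbie for an equal rise. Each is the RefSeq window (assembly GRCm38.p6) of 250 bases before to 50 bases after a start site, read 5′ to 3′ on the strand of the gene. Capitals mark matches, on either strand, to an NF-κB site (GGGA, any base, TTTCC), an AP-1 site (TGANTCA), an interferon-stimulated response element (GAAA, any 2 bases, GAAA) or a gamma-activated site (TTC, any 3 bases, GAA).
Il6 (chr5:30012864-30013163, + strand): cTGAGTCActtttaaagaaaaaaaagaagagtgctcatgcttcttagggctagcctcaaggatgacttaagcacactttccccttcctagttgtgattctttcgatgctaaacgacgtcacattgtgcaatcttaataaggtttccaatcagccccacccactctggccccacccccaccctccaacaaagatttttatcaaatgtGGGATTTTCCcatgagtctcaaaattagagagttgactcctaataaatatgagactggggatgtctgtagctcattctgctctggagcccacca
Cxcl1 (chr5:90890995-90891294, + strand): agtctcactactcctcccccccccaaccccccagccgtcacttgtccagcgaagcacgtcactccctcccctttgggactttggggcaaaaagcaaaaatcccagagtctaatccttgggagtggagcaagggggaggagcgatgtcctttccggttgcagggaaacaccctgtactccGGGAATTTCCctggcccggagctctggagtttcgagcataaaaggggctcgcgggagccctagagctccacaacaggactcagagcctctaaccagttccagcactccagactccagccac
Hamp (chr7:30943980-30944279, - strand): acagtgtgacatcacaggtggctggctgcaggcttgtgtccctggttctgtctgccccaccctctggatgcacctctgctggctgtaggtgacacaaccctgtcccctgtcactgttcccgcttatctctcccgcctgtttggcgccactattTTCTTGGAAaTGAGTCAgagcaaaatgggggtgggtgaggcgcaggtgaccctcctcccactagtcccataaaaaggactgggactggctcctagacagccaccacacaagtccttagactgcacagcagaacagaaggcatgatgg
Isg15 (chr4:156200769-156201068, - strand): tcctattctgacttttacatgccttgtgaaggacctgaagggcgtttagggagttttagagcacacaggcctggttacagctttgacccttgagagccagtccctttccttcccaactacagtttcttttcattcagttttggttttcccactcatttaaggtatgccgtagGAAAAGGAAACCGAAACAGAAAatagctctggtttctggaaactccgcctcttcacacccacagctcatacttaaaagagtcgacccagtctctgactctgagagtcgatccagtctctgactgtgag
Nfkbie (chr17:45555450-45555749, + strand): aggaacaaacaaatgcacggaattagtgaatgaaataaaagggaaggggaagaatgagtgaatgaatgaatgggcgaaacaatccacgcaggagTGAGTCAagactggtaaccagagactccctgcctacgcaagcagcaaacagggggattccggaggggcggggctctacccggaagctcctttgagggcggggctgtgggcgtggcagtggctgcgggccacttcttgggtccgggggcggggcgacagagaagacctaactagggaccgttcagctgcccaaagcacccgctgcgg
The NF-κB match began 44 bases before the start site in Il6 and 71 bases before it in Cxcl1. Il6 also held an AP-1 match 249 bases upstream. Hamp held an AP-1 match 87 bases and a gamma-activated match 97 bases upstream. Isg15 held 3 overlapping response elements from 78 to 66 bases upstream. Nfkbie held an AP-1 match 156 bases upstream. Its window had no match to the exact NF-κB letters given above. Looser forms of that site were not searched, so its absence from Nfkbie is not shown. Of 12809 windows of 10028 tested genes, 0.5% held the NF-κB letters, 3.3% the response element, 5.3% the AP-1 letters and 6.9% the gamma-activated letters. Among the 215 windows of genes that rose in both genotypes but less in KO, beyond 2-fold, these shares were 2.3%, 9.8%, 12.6% and 7.4%. Among the 75 windows of genes that rose equally in both, defined further on, they were 0%, 4.0%, 9.3% and 13.3%. Some other classes held shares as high. The response element was in 11.8% of the 34 windows of genes that fell equally in both, and the NF-κB letters were in 2.9% of them, which is 1 window. Of the 32 windows of genes that rose in KO with no call in WT, beyond 2-fold, 3.1% held the NF-κB letters, again 1 window. The AP-1 letters were in 23 of the 209 windows of genes that rose in KO and fell in WT, and in 13 of the 110 windows of genes that rose in WT with no call in KO, both beyond 2-fold. The NF-κB letters were in 0 of these 110 windows. Among the 62 windows of genes that rose in WT and fell in KO, beyond 2-fold, 1 held them. Letters of a TATA box, an E-box and a cAMP response element were searched as well. They were in 16.7%, 5.6% and 0.9% of the 215 windows, against 7.1%, 9.5% and 3.0% of all windows. The shares were not tested against each other. A match of letters is a description of the sequence and not evidence that a factor binds there.

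Cytokine genes depended on genotype in size more than in direction. Of 26 cytokine genes tested, 19 had a negative difference and 4 a positive one, with a median of -2.34 against 0.04 for all genes, and 16 of the 19 were negative beyond 2-fold. The same genes rose in KO in 19 cases, with a median change of 1.16, and in WT in 24 cases, with a median change of 3.59. Most cytokine genes thus still rose in KO, and 12 of the 26 rose in both genotypes but less in KO. Another 3 rose in both and more in KO, and 4 rose in WT with no call in KO. Opposite movements were found for 3 that fell in KO and rose in WT and 1 that rose in KO and fell in WT.

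Il6, the gene of interleukin-6, an inflammatory cytokine that supports T helper cell differentiation, moved in opposite directions. It had 547, 499 and 559.8 normalised counts in KO combination and 1452, 1560.1 and 1496 in KO IgG, against 14588, 14193 and 14849 in WT combination and 722, 735 and 741 in WT IgG. KO libraries fell below their own IgG level, and WT libraries rose 19.8-fold without overlap. The difference was -5.80 ± 0.08 (adjusted p = 8.96e-19, limma).

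Csf3 (chr11:98701263-98703629), which encodes the neutrophil growth factor G-CSF, was nearly silent outside WT combination. It had 1.91, 3.88 and 5.86 normalised counts in KO combination and 1.30, 0 and 0.720 in KO IgG, against 8744, 7729 and 7622 in WT combination and 0, 0.903 and 2.26 in WT IgG. With so few reads in the other 3 groups, the fitted difference of -10.55 ± 0.60 depends on the added count of 1 and is not an exact fold. The separation of WT combination from the rest is plain in the counts.

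The 2 chains of interleukin-12, the cytokine that drives interferon-γ production by T and NK cells, followed the same course. Il12b (chr11:44400063-44414033) had 29.6, 20.4 and 46.8 normalised counts in KO combination and 7.82, 15.2 and 14.4 in KO IgG, against 4244, 4747 and 5046 in WT combination and 34.8, 46.1 and 46.3 in WT IgG. Its difference was -5.48 ± 0.36, and KO combination overlapped WT IgG. Il12a had 20.1 to 25.8 normalised counts in KO combination and 1.44 to 8.18 in KO IgG, against 978 to 1051 in WT combination and 0.903 to 3.27 in WT IgG, with a difference of -6.15 ± 0.57. Both genes rose in KO and in WT by the test, with a rise in WT to a level that no KO library approached.

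Il1b (chr2:129364570-129371139), the gene of interleukin-1β, whose own receptor signals through Myd88, had 1446, 1327 and 1253 normalised counts in KO combination and 489, 518 and 454 in KO IgG, against 75237, 73029.7 and 74151 in WT combination and 704, 593 and 615 in WT IgG. It rose 2.75-fold in KO and 116-fold in WT, a difference of -5.40 ± 0.10. Tnf (chr17:35199381-35202007), for tumour necrosis factor, had 3248, 3331 and 3485 normalised counts in KO combination and 499, 594 and 482 in KO IgG, against 55927, 49484 and 50595 in WT combination and 680.3, 658 and 585 in WT IgG. It kept the larger response of the pair in KO, 6.41-fold, against 81.0-fold in WT (difference -3.66 ± 0.11). KO minus WT was -0.39 for Il1b and -0.29 for Tnf on the log2 scale under IgG, against -5.79 for Il1b and -3.95 for Tnf under the combination. Il1a, for interleukin-1α, had a difference of -3.62 ± 0.06. Il10, for the anti-inflammatory interleukin-10, averaged 5.11 normalised counts in KO combination and 1.59 in KO IgG, against 1324 in WT combination and 15.8 in WT IgG (difference -5.03 ± 0.63).

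**Figure D2:**
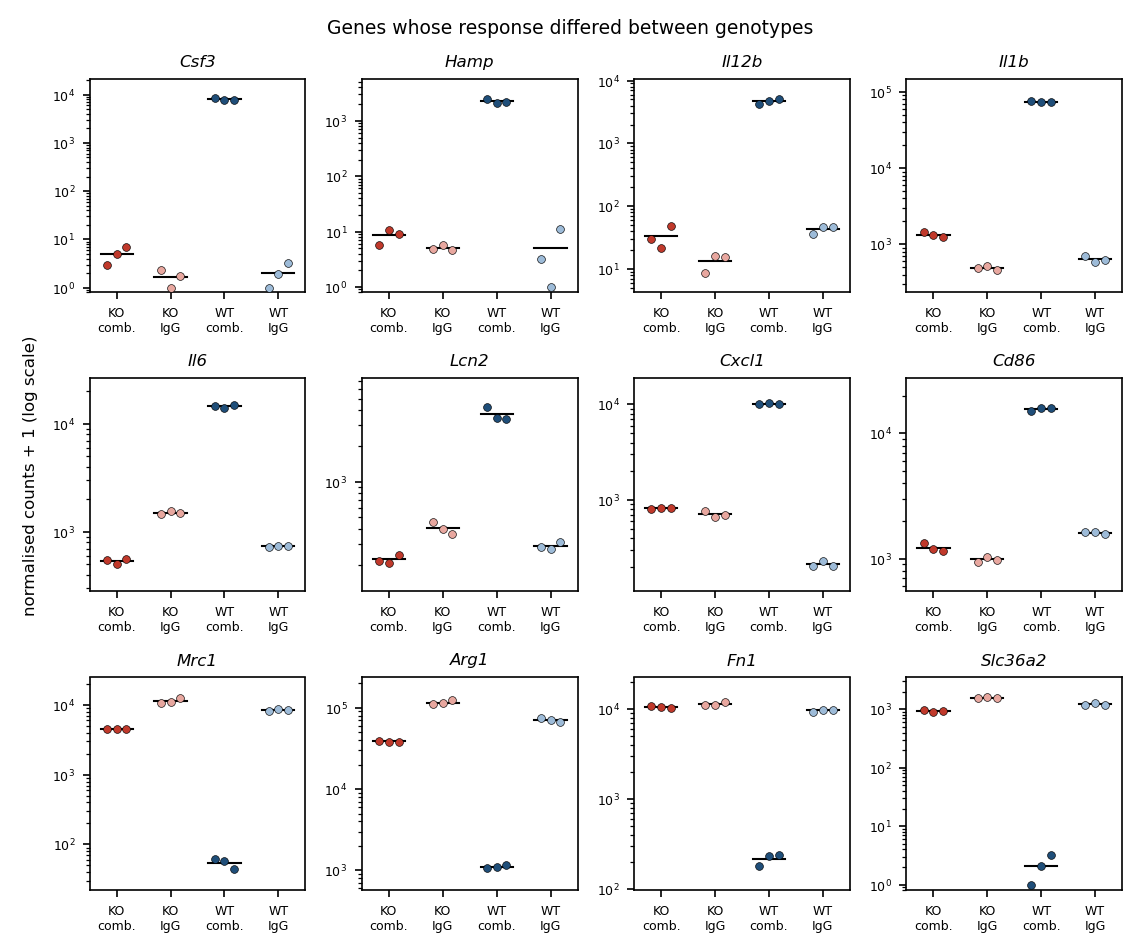
Normalised counts plus 1, on a log axis, of 12 genes in each of the 12 libraries, with bars at group means, for KO combination, KO IgG, WT combination and WT IgG from left to right. Csf3, Hamp and Il12b stand high in WT combination alone. Mrc1, Arg1, Fn1 and Slc36a2 stand low in WT combination and stay near or within a few-fold of IgG levels in KO combination.

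Most chemokine genes had a negative difference, with 11 that rose in both genotypes but less in KO. Of 23 tested, 15 had a negative difference, 12 of them beyond 2-fold, and 6 a positive one, with a median of -1.41. They rose in KO in 14 cases and in WT in 17, and fell in 6 cases in each genotype. Cxcl1 (chr5:90891241-90893115), a neutrophil attractant, had 800.1, 816 and 832 normalised counts in KO combination and 769.9, 659 and 699.9 in KO IgG, against 10090.1, 10235 and 9995 in WT combination and 202, 229 and 204 in WT IgG. The gene stood higher in KO than in WT under IgG and rose by only 1.15-fold in KO, against 47.5-fold in WT (difference -5.37 ± 0.09). Its neighbour Cxcl2, for a related attractant, rose by 0.83 in KO and by 4.06 in WT on the log2 scale. Ccl22, which draws regulatory T cells, had a difference of -2.70 ± 0.08 and Ccl4, for a macrophage inflammatory protein, one of -2.81 ± 0.10. The T cell attractant Ccl5 averaged 4488 normalised counts in KO combination and 1981 in KO IgG, against 106194 in WT combination and 4272 in WT IgG (difference -3.45 ± 0.15).

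A few chemokine genes went the other way. Ccl1, for a T cell and monocyte attractant, had 22.0, 11.6 and 18.7 normalised counts in KO combination and 7.17, 3.51 and 7.92 in KO IgG, against 10.5, 11.2 and 8.78 in WT combination and 133, 127 and 131 in WT IgG. It rose in KO and fell in WT, with a difference of 4.94 ± 0.44, and the KO counts are low throughout.

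Antimicrobial and iron genes gave 12 negative and 7 positive differences among 20 tested, with a median of -1.01. In 16 of the 20 the gene rose in KO and in 16 it rose in WT. Hamp (chr7:30942368-30944032), the gene of the iron hormone hepcidin, had 4.77, 9.71 and 8.20 normalised counts in KO combination and 3.91, 4.67 and 3.60 in KO IgG, against 2513, 2085 and 2192 in WT combination and 2.18, 0 and 10.2 in WT IgG. KO combination overlapped WT IgG, and the KO change of 0.72 did not pass (adjusted p = 0.281, limma). Its difference was -8.71 ± 0.79, again dependent on the added count. Lcn2 (chr2:32384633-32388252), for lipocalin-2, which binds bacterial iron carriers, fell to 214, 207 and 242 normalised counts in KO combination, against 458, 397 and 362 in KO IgG. In WT it had 4224, 3429.7 and 3367 in the combination and 281, 270.1 and 307 in IgG, and the difference was -4.54 ± 0.14.

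Other members of the group rose clearly in KO as well. Nos2 (chr11:78920787-78960254), the inducible nitric oxide synthase, had 1522, 1639 and 1548 normalised counts in KO combination and 116, 106 and 107 in KO IgG, against 39238, 40579 and 39945 in WT combination and 244, 228 and 202 in WT IgG. That is 14.2-fold in KO and 177-fold in WT, a difference of -3.65 ± 0.10. Acod1, which makes itaconate, was one of the genes that gained more in KO, with 32617 to 34369 normalised counts in KO combination and 2766 to 3008 in KO IgG, against 30456 to 31455 in WT combination and 6598 to 6769 in WT IgG (difference 1.33 ± 0.06). The levels reached under the combination were close in KO and WT for Acod1, and the starting levels differed. Slc40a1, for the iron exporter ferroportin that hepcidin removes from the cell surface, rose by 1.97 in KO and had no call in WT (0.17), and its difference was 1.80 ± 0.13. It was chosen after its values were seen.

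The genes of NF-κB itself, its subunits and inhibitors, rose in all 14 cases in KO and in all 14 in WT, with a median change of 0.97 in KO and 1.84 in WT. The difference was negative for 12 and positive for 1, with a median of -0.67. Nfkbia, for the inhibitor IκBα, rose by 1.00 in KO and by 2.63 in WT (difference -1.63 ± 0.07). Nfkbiz, an atypical inhibitor protein needed for part of the secondary NF-κB genes, Il6 and Lcn2 among those known, averaged 539.6 normalised counts in KO combination and 358 in KO IgG, against 3829 in WT combination and 663 in WT IgG (difference -1.93 ± 0.14). The 1 gene with a positive difference was Relb, a subunit of the alternative pathway, with 0.24 ± 0.08, named after its values were seen. Among 18 feedback regulators, 15 had a negative and 2 a positive difference, with a median of -0.9. Zc3h12a, which encodes an RNase that destroys cytokine transcripts, rose by 0.40 in KO and by 2.34 in WT. Socs3, a brake on cytokine receptors, rose by 0.55 in KO and by 2.28 in WT.

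The genes of the Myd88 signalling chain changed little by comparison. Of 17 tested, 7 had a negative and 2 a positive difference, with a median of -0.19 and none beyond 2-fold. Traf6, the ubiquitin ligase downstream of Myd88, rose by 0.67 in KO and by 1.28 in WT. Map3k8, a kinase that links the chain to ERK, had a difference of -0.98 ± 0.11. Among 17 receptors that use Myd88, 4 had a negative and 7 a positive difference, with a median of 0.04. Cd14, the co-receptor that hands bacterial lipids to Toll-like receptors, rose by 0.59 in KO and by 3.23 in WT (difference -2.64 ± 0.09). Tlr8 went the opposite way, with 286 to 307 normalised counts in KO combination and 478 to 927 in KO IgG, against 14.7 to 27.4 in WT combination and 1078 to 1161 in WT IgG (difference 4.69 ± 0.29). Tlr7 and Tlr13, both for sensors of RNA in endosomes, had no call in KO and fell in WT, with log2 changes of -1.25 for Tlr7 and -1.89 for Tlr13.

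Type I interferon response genes rose in both genotypes and less in KO. Of 37 tested, 35 rose in KO and 37 in WT, with median changes of 1.27 and 2.17, and 28 had a negative difference against 1 positive, with a median of -0.8. Isg15 (chr4:156199424-156200818), a ubiquitin-like protein of the antiviral state, had 1702, 1587 and 1722 normalised counts in KO combination and 452, 438 and 369 in KO IgG, against 14647, 13281 and 13359 in WT combination and 495, 531 and 537 in WT IgG. It rose 3.99-fold in KO and 26.4-fold in WT, a difference of -2.73 ± 0.10. Irf7, the factor that amplifies interferon production, rose 4.76-fold in KO and 14.4-fold in WT, and Mx1, an antiviral GTPase, had a difference of -1.37 ± 0.08. Ifnb1, the gene of interferon-β, had 15.3, 13.6 and 16.4 normalised counts in KO combination and 1.96, 1.17 and 0 in KO IgG, against 35.7, 37.1 and 50.5 in WT combination and 1.09, 0.903 and 2.26 in WT IgG. It was higher in both combination groups than in their IgG groups, and its difference of -1.04 ± 0.65 did not pass the test (adjusted p = 0.186, limma). Ifnb1 passed in 2 alternative fits, with array weights and with 8 added to each count.

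Of 21 genes of the interferon-γ response tested, 17 had a negative difference and none a positive one, with a median of -0.72, and 13 rose in KO against 19 in WT. Irf8, a factor of the dendritic cell lineage that interferon-γ also induces, rose by 0.13 in KO and by 2.59 in WT. Gbp5, for a GTPase that acts on vacuolar bacteria, rose by 1.78 in KO and by 3.39 in WT. Ifng itself averaged 268 normalised counts in KO combination and 68.6 in KO IgG, against 13062 in WT combination and 937 in WT IgG (difference -1.85 ± 0.10), and T or NK cells are its usual source. Of the nucleic acid sensing genes, 5 of 15 had a positive and 4 a negative difference, with a median of 0.01. Cgas (0.07 ± 0.15) and the transcription factor gene Irf3 (-0.08 ± 0.12) had no called difference, and Tmem173, which encodes the STING adaptor, had one of 0.19 ± 0.07. The call for Tmem173 was lost with all 24 libraries in the fit and without any 1 of KO combination replicates 1 and 2, KO IgG replicate 3, WT combination replicate 3 and WT IgG replicate 3. Ifih1, for the RNA sensor MDA5 and itself an interferon response gene, had a difference of -1.15 ± 0.09.

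Costimulatory molecules rose less in KO. Of 20 costimulation and checkpoint genes, 13 had a negative difference, 8 of them beyond 2-fold, and 4 a positive one, with a median of -1.29. Cd86 (chr16:36603869-36666081), a ligand for CD28 on T cells, had 1331, 1193 and 1154 normalised counts in KO combination and 947, 1039 and 974 in KO IgG, against 15082, 15911 and 15917 in WT combination and 1627, 1639 and 1577 in WT IgG. It rose 1.24-fold in KO and 9.68-fold in WT (difference -2.96 ± 0.08), and KO combination stayed below WT IgG. Cd40, the receptor for T cell help, rose 5.02-fold in KO and 40.1-fold in WT, and Cd80, another CD28 ligand, had a difference of -2.69 ± 0.10. Cd274, for the PD-1 ligand PD-L1, averaged 18007 normalised counts in KO combination and 10554 in KO IgG, against 33778 in WT combination and 8021 in WT IgG (difference -1.30 ± 0.10). Cd200r1, for an inhibitory receptor, fell by 0.28 in KO and by 3.06 in WT.

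Genes of migratory dendritic cells behaved alike. Of 19 tested, 17 had a negative difference, 13 beyond 2-fold, and 2 a positive one, with a median of -1.57. Ccr7 (chr11:99144196-99155077), the receptor that leads dendritic cells into lymph nodes, had 4140.0, 4143 and 4194 normalised counts in KO combination and 2034, 1886 and 1653 in KO IgG, against 61938, 60053 and 59424 in WT combination and 6263, 5989 and 6207 in WT IgG. It rose 2.25-fold in KO and 9.83-fold in WT (difference -2.13 ± 0.08). KO IgG lay below WT IgG, and KO combination did not reach the WT IgG level. In 15 of the 19 genes KO was lower than WT already under IgG, against 31.8% of all genes tested. A gap in level was thus present without anti-PD-1 and LGG. It was not particular to this list. Under IgG, KO was lower in 29 and higher in 2 of 37 type I interferon response genes. The counts were 17 and 1 of 21 for the interferon-γ response, 12 and 1 of 14 for NF-κB, and 13 and 5 of 20 for costimulation and checkpoint. Of 23 chemokine genes, 7 were lower and 12 higher. Antigen presentation changed less. Of 21 genes of the class I pathway, 16 had a negative and 1 a positive difference, with a median of -0.35, and H2-Q7, a class I gene of a multigene family whose reads may be shared with its relatives, had -0.80 ± 0.08. Of 13 genes of the class II pathway, 6 had a positive and none a negative difference, with a median of 0.30. H2-DMa, a peptide-loading gene of this pathway, fell by 0.26 in KO and by 1.84 in WT. March1, for a ligase that removes class II from the surface, rose by 0.48 in KO and fell by 1.56 in WT.

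**Figure D3:**
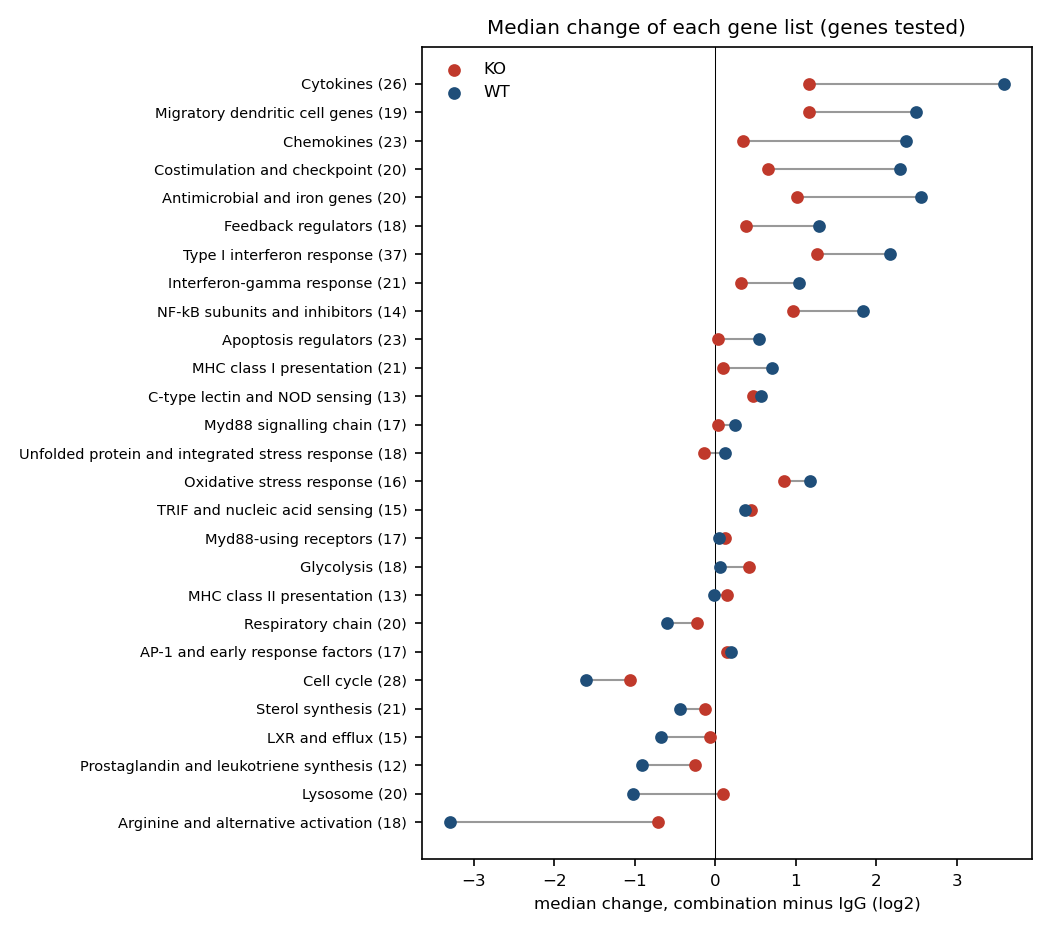
Median log2 change under the combination against IgG over the tested genes of each of 27 gene lists, in KO (red) and in WT (blue), sorted by the median over genes of the difference in effect, which need not equal the gap between the points. Cytokine, migratory and chemokine lists lie at the top with larger medians in WT, and the lysosome and the arginine and alternative activation lists at the bottom with more negative medians in WT.

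At the other end stood genes that the combination lowered strongly in WT. Of 18 arginine and alternative activation genes, 12 had a positive difference, 11 beyond 2-fold, and 2 a negative one, with a median of 1.99. In 12 of the 18 the gene fell in KO, with a median change of -0.71, and in 13 it fell in WT, with a median of -3.3. Mrc1 (chr2:14229392-14332057), the mannose receptor, had 4589, 4509 and 4466 normalised counts in KO combination and 10738, 10944 and 12463 in KO IgG, against 60.9, 57.3 and 42.8 in WT combination and 8297, 8840.1 and 8399.9 in WT IgG. All groups were separate, and KO exceeded WT by 6.39 on the log2 scale under the combination and by 0.42 under IgG. The difference in effect was 5.97 ± 0.13. Arg1 (chr10:24915221-24927484), which degrades arginine, had 39426, 37759 and 37997 normalised counts in KO combination and 109878, 113482 and 123425 in KO IgG, against 1082, 1113 and 1152 in WT combination and 74089.5, 70866 and 67268 in WT IgG (difference 4.40 ± 0.08). Ccr2, the receptor that brings monocytes into tissue, had a difference of 4.76 ± 0.10, and Mgl2, a lectin of alternatively activated cells and of a dendritic cell subset, one of 3.34 ± 0.06.

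Fn1 (chr1:71585520-71653200), for fibronectin, kept its level in KO. It had 10806, 10469.6 and 10134 normalised counts in KO combination and 11027, 11123 and 12048 in KO IgG, against 177, 229 and 234 in WT combination and 9293, 9792 and 9714 in WT IgG. The KO change of -0.12 did not pass (adjusted p = 0.189, limma), and the difference was 5.37 ± 0.11. Slc36a2, an amino acid transporter gene, had 959, 897 and 936 normalised counts in KO combination and 1568, 1613 and 1573 in KO IgG, against 0, 1.12 and 2.19 in WT combination and 1204, 1265 and 1162 in WT IgG. It was at the limit of detection in WT combination alone, and the fitted difference of 8.55 ± 0.36 depends on the added count.

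Lysosomal genes mostly fell in WT and did not do so in KO. Of 20 tested, 17 had a positive and none a negative difference, with a median of 1.05, while 9 rose and 3 fell in KO, against 2 that rose and 14 that fell in WT. Lipa, for lysosomal acid lipase, had no call in KO (0.00) and fell by 2.65 in WT (difference 2.66 ± 0.06). Tfeb, for the factor that governs lysosomal genes, had no call in KO and fell by 2.49 in WT. Gusb, for β-glucuronidase, had no call in KO and fell by 1.59 in WT. Lipid genes pointed the same way. Of 21 sterol synthesis genes 12 had a positive and 1 a negative difference, with a median of 0.42, and of 15 genes of the LXR and efflux list 11 had a positive and 1 a negative one, with a median of 0.59. Dhcr7, the last enzyme of cholesterol synthesis, fell by 0.39 in KO and by 2.93 in WT, and Pltp, for phospholipid transfer protein, had no call in KO (-0.06) and fell by 2.34 in WT.

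Prostaglandin and leukotriene synthesis genes split in the sign of their difference. Of 12 tested, 7 had a positive and 5 a negative difference. Ptgs2, the inducible cyclooxygenase, had 876, 892 and 827 normalised counts in KO combination and 351, 338 and 457 in KO IgG, against 38358, 42069 and 44001 in WT combination and 607, 725 and 630.3 in WT IgG (difference -4.80 ± 0.13). Ptges, the inducible prostaglandin E synthase, had a difference of -5.22 ± 0.16. Ptgs1, the constitutive cyclooxygenase, had log2 changes of -0.75 in KO and -3.97 in WT, and Tbxas1, for thromboxane synthase, of -0.73 in KO and -4.05 in WT. All 4 genes passed the test in both genotypes. The WT shift from Ptgs1 and Tbxas1 transcripts towards Ptgs2 and Ptges transcripts was thus present in KO in direction and much smaller in size.

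Metabolic genes moved by less. Of 20 respiratory chain genes, 12 had a positive and 3 a negative difference, with a median of 0.34, and 13 fell in KO against 17 in WT. Sdha, a subunit of complex II, fell by 0.26 in KO and by 0.89 in WT. Of 18 glycolytic genes, 10 had a positive and 4 a negative difference, with a median of 0.29, and 16 rose in KO against 8 in WT. Pfkfb3, which makes the activator of phosphofructokinase, was an exception, with 0.40 in KO and 2.19 in WT, and Fbp1, of the opposing gluconeogenic step, had log2 changes of -1.51 in KO and -5.96 in WT. Of 28 cell cycle genes, all 28 fell in KO and all 28 in WT, with median changes of -1.06 and -1.6. The difference was positive for 19 and negative for 2. Bub1b, a spindle checkpoint kinase, had a difference of 1.43 ± 0.09, and Tyms, thymidylate synthase, was 1 of the 2 that fell more in KO, with -1.10 ± 0.11.

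Several further groups were mixed. Of 17 AP-1 and early response factors, 9 had a positive and 8 a negative difference, with a median of 0.37. Fos, a subunit of AP-1, fell less in KO (difference 1.29 ± 0.06), while Fosl2, another subunit, fell by 0.29 in KO and rose by 1.51 in WT. Of 23 apoptosis regulators, 3 had a positive and 15 a negative difference, with a median of -0.51. Birc2, for an inhibitor of apoptosis that also acts in tumour necrosis factor signalling, rose by 0.54 in KO and by 2.11 in WT, and Bcl2l11, for the death-promoting protein BIM, fell by 0.79 in KO and rose by 0.57 in WT. Of 13 C-type lectin and NOD sensing genes, 4 had a positive and 7 a negative difference. Clec7a, for the β-glucan receptor dectin-1, rose by 0.16 in KO and fell by 1.47 in WT, and Ripk2, the kinase of the NOD receptors, rose by 0.15 in KO and by 1.27 in WT. Oxidative stress genes were balanced, with 6 positive and 6 negative differences among 16, and 13 rose in KO against 12 in WT. Of 18 genes of the unfolded protein and integrated stress responses, 2 had a positive and 9 a negative difference, with a median of -0.15.

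Some genes moved in opposite directions in the genotypes. Serpinb9b (chr13:33027416-33041884), a serine protease inhibitor gene in a multigene family, had 335, 266 and 285 normalised counts in KO combination and 431, 415 and 461 in KO IgG, against 1652, 1714 and 1786 in WT combination and 118, 115 and 103 in WT IgG. It fell in KO and rose in WT, with a difference of -4.50 ± 0.13. Dlk2 had 40.1, 34.0 and 29.3 normalised counts in KO combination and 3.26, 8.18 and 6.48 in KO IgG, against 9.45, 3.37 and 6.58 in WT combination and 96.9, 88.5 and 93.8 in WT IgG. For this relative of a Notch pathway regulator, the KO combination level resembled neither IgG group, and the difference was 6.15 ± 0.49. Nfasc, which encodes the cell adhesion protein neurofascin, had a difference of 5.47 ± 0.65 at levels of 5.86 to 24.8 normalised counts in KO combination and 2.34 to 3.60 in KO IgG, against 2.19 to 6.74 in WT combination and 58.8 to 61.4 in WT IgG. Csf1r, the receptor for macrophage growth factor, rose by 0.36 in KO and fell by 2.16 in WT, and Egr2, an early response factor, rose by 0.25 in KO and fell by 1.64 in WT.

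Genes that rose more in KO were fewer and their differences smaller. Itgb3, for integrin β3, had 3607 to 3872 normalised counts in KO combination and 928 to 958 in KO IgG, against 4539 to 4796 in WT combination and 4093 to 4189 in WT IgG (difference 1.81 ± 0.06). The rise in KO brought it near a WT level that hardly moved. Pcx, for pyruvate carboxylase, rose 3.98-fold in KO and 1.20-fold in WT. Gclm, for a subunit of the enzyme that makes glutathione, rose by 1.62 in KO and by 0.49 in WT, and Clec4n, for the lectin dectin-2, by 1.65 in KO and by 0.57 in WT. Fam20a, for a pseudokinase of the secretory pathway, was among the genes that fell in KO with no call in WT. It had 8.74 to 11.5 normalised counts in KO combination and 77.0 to 108 in KO IgG, against 10.1 to 27.3 in WT combination and 15.4 to 28.3 in WT IgG (difference -2.88 ± 0.46).

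A set of genes changed by similar amounts in both genotypes. An equal change was defined as a call in the same direction in both, a change of at least 2-fold in both, and a 95% confidence interval of the difference within ±0.5 on the log2 scale. Of 852 genes that met the first 2 conditions, 106 met the third, 68 that rose and 38 that fell. The third condition bounds the size of the difference and does not exclude genes whose difference was called. H2-M2 (chr17:37480851-37483552), for a non-classical class I molecule of activated dendritic cells, had 9708, 9121 and 8666 normalised counts in KO combination and 1076, 952 and 1308 in KO IgG, against 9952, 10013 and 10308 in WT combination and 1196, 1123 and 1178 in WT IgG. It rose 8.30-fold in KO and 8.65-fold in WT, a difference of -0.06 with a 95% interval of -0.30 to 0.18. Tlr2 (chr3:83836272-83841767), the receptor for bacterial lipoproteins and lipoteichoic acids that itself signals through Myd88, had 2789, 2695 and 2728 normalised counts in KO combination and 807, 809.8 and 824 in KO IgG, against 2787, 2861 and 2927 in WT combination and 846, 843 and 859 in WT IgG. KO libraries overlapped WT libraries under the combination and lay just below them under IgG, both genotypes rose 3.36-fold, and the interval of the difference was -0.14 to 0.14.

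Other genes with equal rises by this definition had varied roles. Met, the receptor for hepatocyte growth factor, rose by 3.02 in KO and by 2.87 in WT. The Notch ligand gene Jag1 rose by 2.73 in KO and by 2.75 in WT. Slc7a11, the cystine transporter, rose by 2.59 in KO and by 2.79 in WT, with a difference of -0.20 ± 0.07. Egln3, a prolyl hydroxylase of the hypoxia response, rose by 2.36 in KO and by 2.49 in WT. Nfkbie, for the inhibitor IκBε, had 2891 to 2945 normalised counts in KO combination and 523 to 599 in KO IgG, against 5275 to 5592 in WT combination and 1056 to 1154 in WT IgG, so that KO stayed below WT under both treatments while the change was alike (difference 0.09 ± 0.08). Clec4d, a C-type lectin gene, rose by 1.98 in KO and by 2.25 in WT. Outside the set, Clec4e, for the receptor Mincle, rose 19.8-fold in KO and 61.8-fold in WT, a difference of -1.64 ± 0.09 on top of a large rise in both. Heme oxygenase gene Hmox1 rose by 2.53 in KO and by 3.25 in WT.

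**Figure D4:**
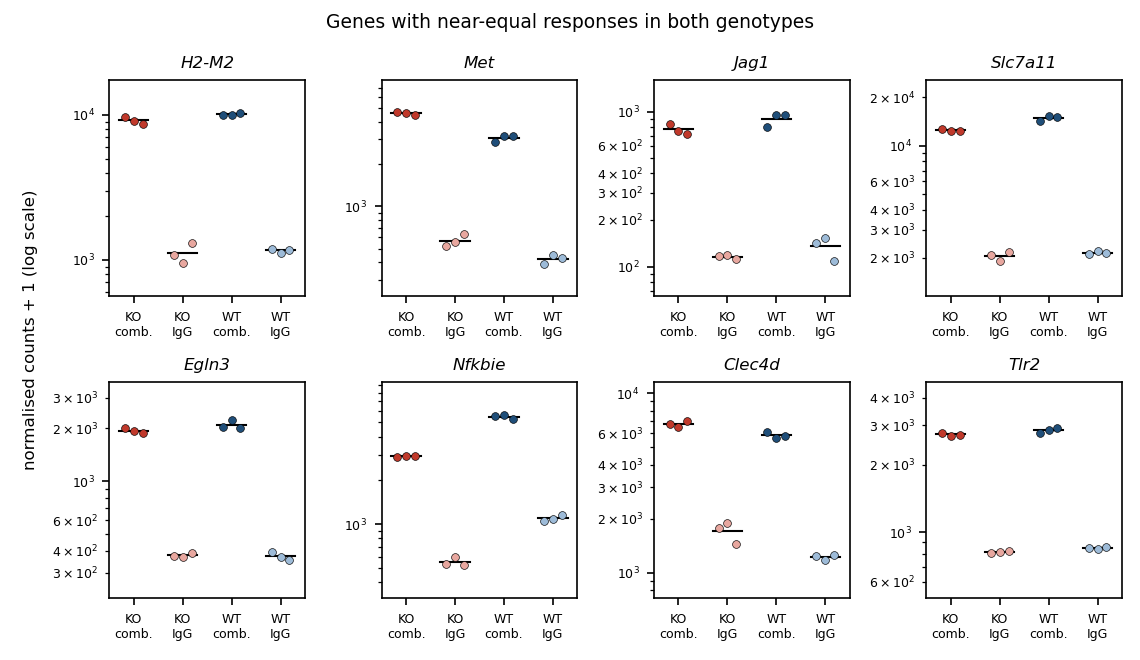
Normalised counts of H2-M2, Met, Jag1, Slc7a11, Egln3, Nfkbie, Clec4d and Tlr2 in each library of KO combination, KO IgG, WT combination and WT IgG, with bars at group means. In each panel both combination groups lie above both IgG groups, and the step is of similar size in KO and in WT.

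Transcript levels of cell type markers were not the same in the 4 groups. In bulk RNA, fewer cells of a type and less RNA per cell cannot be told apart, and this bears on every comparison above. The label of dendritic cells was checked against their markers. Itgax, which encodes CD11c, had 51199.7 to 53698 normalised counts in KO combination and 36057 to 37760.5 in KO IgG, against 9813 to 10341 in WT combination and 22690.3 to 23386 in WT IgG. It was present in all libraries, rose in KO and fell in WT (difference 1.70 ± 0.06). The core genes of conventional dendritic cells summed to 226169 to 228618 normalised counts in KO combination and 174292 to 187681 in KO IgG, against 211198 to 234103 in WT combination and 179701 to 202078 in WT IgG. Of these 11 core genes, 7 were lower and 1 higher in KO than in WT under the combination, with a median of -0.78. The same counts held under IgG, with a median of -0.6. The difference in effect was positive for 3 and negative for 5. Zbtb46, a factor that marks conventional dendritic cells, had a difference of -1.47 ± 0.10. Markers of the cDC1 subset had 6 positive and 5 negative differences among 13, and those of the cDC2 subset 7 positive and 6 negative among 13. Of 9 plasmacytoid markers, 2 were positive and 4 negative. The cDC1 list summed to 23096 to 23316 normalised counts in KO combination and 28883 to 30606 in KO IgG, against 47209 to 49363 in WT combination and 29447 to 30137 in WT IgG. The cDC2 list summed to 88669 to 92858 in KO combination and 123872 to 127788 in KO IgG, against 45483 to 45605 in WT combination and 92085 to 95441 in WT IgG. The plasmacytoid list summed to 15543 to 17441 in KO combination and 10109 to 12226 in KO IgG, against 36020.1 to 42117 in WT combination and 11573 to 13505 in WT IgG. The cDC1 sum was thus lower under the combination in KO and higher in WT. The cDC2 sum was lower under the combination in both genotypes, and the plasmacytoid sum was higher. Members did not all follow these sums. Of 13 cDC1 genes, 5 rose and 3 fell in KO, and 5 rose and 6 fell in WT. Of 13 cDC2 genes, 3 rose and 6 fell in KO, and 7 rose and 6 fell in WT. Of 9 plasmacytoid genes, 7 rose and 1 fell in KO, and 6 rose and 1 fell in WT. The part of these shifts in the results above was not tested.

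Macrophage and monocyte markers, 19 of 21 tested, summed to 315925 to 327665 normalised counts in KO combination and 399164 to 443798 in KO IgG, against 94226 to 102044 in WT combination and 286114 to 308334 in WT IgG. Of the 19, 13 had a positive and 3 a negative difference, with a median of 1.80, as in the alternative activation and lysosome lists, and their part in those results was not tested. The macrophage sums exceeded those of the conventional dendritic cell core in KO combination, KO IgG and WT IgG, and were below them in WT combination. The lists hold different genes, so their sums do not give shares of cells. Some genes stand in both the macrophage and the alternative activation list, Mrc1 and Ccr2 among them. Genes typical of dendritic cells grown in culture with GM-CSF, a list chosen with earlier results of these data in view, summed to 1671617 to 1766486 in KO combination and 2239029 to 2781414 in KO IgG, against 224957 to 233544 in WT combination and 1037188 to 1067585 in WT IgG. Outside WT combination most of that sum was Chil3, for a chitinase-like lectin, named after its values were seen, which alone took 3.42% to 3.57% of KO combination and 5.1% to 6.37% of KO IgG totals, and 2.55% to 2.59% of WT IgG totals.

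T cell markers were present in all groups and lowest in KO IgG. The 22 genes summed to 17719.9 to 18042 normalised counts in KO combination and 7948 to 8474 in KO IgG, against 27268 to 28278 in WT combination and 22472 to 23677 in WT IgG. Of the 22, 20 had a positive and none a negative difference, with a median of 1.13. They rose in all 22 cases in KO and in 13 in WT, and 21 of them were lower in KO than in WT under IgG, with a median of -3.44. Cd3e, part of the T cell receptor complex, had 196, 169 and 198 normalised counts in KO combination and 39.8, 49.1 and 54.0 in KO IgG, against 943, 896 and 882 in WT combination and 825, 820.3 and 818 in WT IgG. Mast cell and basophil markers moved similarly, with 9 positive differences and 1 negative among 10 and a sum of 2186 to 2370.4 in KO combination and 869 to 931 in KO IgG, against 7987 to 8423 in WT combination and 5167 to 5429 in WT IgG. These 2 marker lists thus had mostly positive differences, while Ifng and Ccl5, which T and NK cells also make, had negative ones. The part of these cells in the results for Ifng, Ccl5 and the interferon-γ response was not tested. NK and cytotoxic markers, a list that holds Ifng and Ccl5, summed to 16328 to 16981 in KO combination and 5667 to 6692 in KO IgG, against 182604 to 207980.5 in WT combination and 50936 to 53283 in WT IgG. This sum was higher under the combination in both genotypes, and Ccl5 averaged 106194 of it in WT combination. Of the 13 genes, 7 had a positive and 3 a negative difference, and Eomes, a factor of NK and memory T cells, had one of 2.97 ± 0.14. Of 9 B cell markers, 3 had a positive and none a negative difference. No tested marker of these macrophage, T cell, mast cell, NK, B cell or neutrophil lists was at 0 in every library of a group. Neutrophil markers summed to 9284 to 9854 in KO combination and 5508 to 5840.1 in KO IgG, against 3347 to 3664 in WT combination and 5742 to 5829 in WT IgG. Most single members ran against this sum. Of 12 tested, 10 were lower and 1 higher in KO than in WT under the combination, with a median of -1.65. Under IgG 9 were lower and 1 higher, with a median of -1.33. The difference in effect was positive for 6 and negative for 2.

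**Figure D5:**
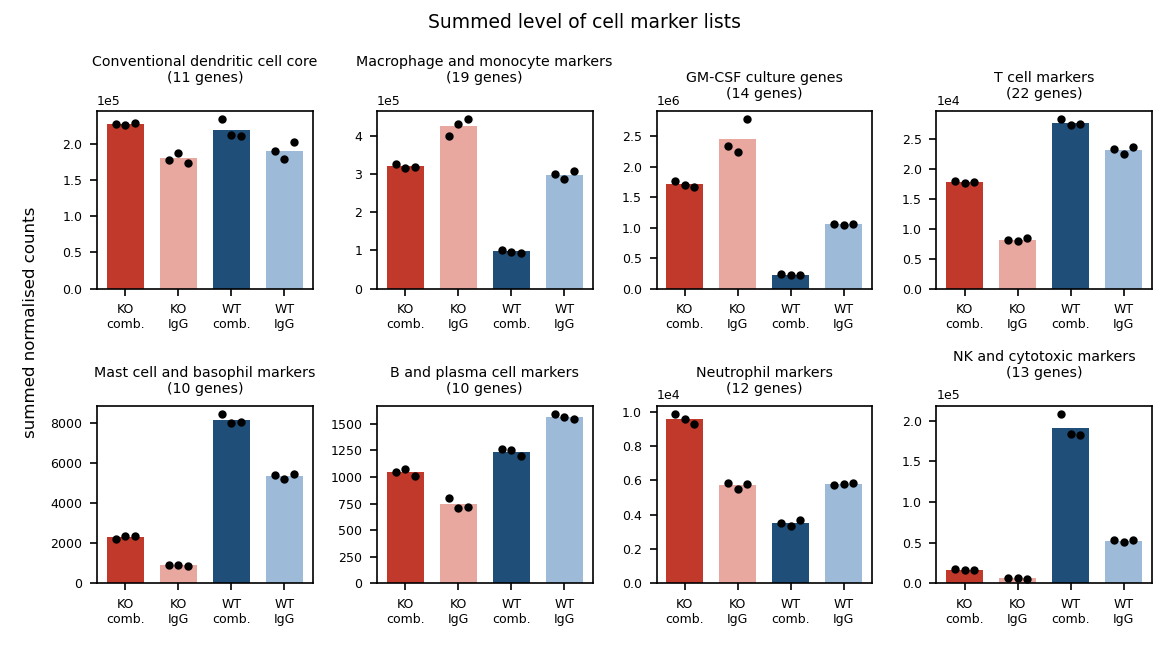
Summed normalised counts of 8 marker lists in KO combination, KO IgG, WT combination and WT IgG, with bars at the mean and points for the 3 libraries of each group. Macrophage and GM-CSF culture sums are lowest in WT combination, and T cell and mast cell sums are lowest in KO IgG.

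The remaining 12 libraries gave a comparison that shares no library with the one above: LGG alone against anti-PD-1 alone, in KO minus in WT. Both the bacterium and the antibody differ between its arms. In that comparison 3053 genes were called, or 24% of those tested. Of these, 2799 were also called for the combination, which is 38.0% of the genes called for the combination and 91.7% of those called there, and 2796 of the 2799 had the same sign. Across all genes tested the 2 differences had a Pearson r of 0.838, given as a description. Here 3 libraries stood apart from their groups, KO anti-PD-1 replicates 2 and 3 and KO LGG replicate 2. Without them 7989 genes were called, or 62.9%, with r = 0.75. Of these 5210 were called in both, 70.7% of those called for the combination and 65.2% of those called there, and 4871 of the 5210 had the same sign. That leaves 1 library of KO anti-PD-1, which is assumed to vary like the others.

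Il6, Mrc1 and Csf3 kept the sign of their difference in the second set of libraries. Il6 had a difference of -5.78 with and -5.89 without the 3 libraries, beside -5.80 for the combination. Mrc1 had 7.02 with and 7.48 without them, beside 5.97. Csf3 had -11.35 with and -10.33 without them, beside -10.55. Among genes that rose equally under the combination, Tlr2 had -0.26 with and -0.24 without the 3 libraries, H2-M2 0.59 with and 0.40 without them, and Egln3 -1.65 with and -1.58 without them. The differences of Tlr2 did not pass in either fit, that of H2-M2 passed without the 3 libraries, and that of Egln3 passed in both (adjusted p = 0.000857 with and 1.26e-06 without the 3 libraries, limma).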

How the data were processed

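RNA of CD11c+ cells was sequenced in 24 libraries, of which 12 entered the fit. The authors deposited 1 table of normalised signal. The submitters' processing notes name STAR 2.4.0, HTSeq 0.6.1, DESeq2 and the build mm10; the deposited values are read counts per gene divided by 1 factor per library. Each library's values were whole multiples of the worth of 1 read, and dividing by it gave whole reads for 100% of values within a tolerance of 0.001 reads.

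From the deposited values, log2(value + 1) was fitted with limma 3.58.1 in R 4.3.3 (1 mean per group, mean-variance trend, robust empirical Bayes) for 12695 genes whose mean over the 12 libraries reached 10. The 5 comparisons were tested 2-sided, with Benjamini-Hochberg adjustment over all genes tested in each. Differences beyond 2-fold used the same fit with a threshold of 1 on the log2 scale. The procedure was run on simulated data with the same spread in all groups and few changed genes. That setting is simpler than these data, so it does not show how the procedure performs on them. Unlisted genes were not analysed here. Reads shared between near-identical genes cannot be separated, and whether counting used strand is not given in the sources used here.

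The members of the comparison and the 44 gene lists were chosen with earlier results of these data known. The named genes are, in each response class, up to 3 with the largest difference and a mean of at least 50 in the highest group, up to 8 of the equal changes, up to 4 members of each list with the smallest p, and a list of asked genes. Predicted genes and receptor segments were passed over. Coordinates are from an mm10 annotation and promoters from RefSeq. Alternatives were a pseudocount of 8, no filter, TMM scaling, array weights, all 24 libraries, whole-read tests with edgeR 4.0.16 or DESeq2 1.42.0, a replicate block, and each library left out. The alternative without 3 libraries was chosen after seeing the data. Replicate numbers were not treated as pairs in the main fit. Deviations of same-numbered libraries from their group means correlated by -0.132 to 0.197, which does not exclude a pairing.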

Additional observations from a re-analysis of the deposited data

Results flagged for a closer look

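The effect of the combination differed between KO and WT, by a test of the difference itself, for 7371 genes. Among the genes that moved in opposite directions, Il6 (-5.80), Lcn2 (-4.54) and Serpinb9b (-4.50) fell in KO and rose in WT, with log2 differences as given. Dlk2 (6.15), Nfasc (5.47) and Ccl1 (4.94) rose in KO and fell in WT, and all had fewer than 50 normalised counts in every KO library. No test for a single outlying value was made within groups of 3 libraries. Array weights ranged from 0.319 for KO IgG replicate 3 to 1.99 for KO IgG replicate 1.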

How the results depend on the processing

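No count and no named gene reversed under the alternatives run. The difference was called for 7366 genes with edgeR, 7317 with DESeq2, 7359 with TMM scaling, 7391 without a filter, 7544 with a pseudocount of 8, 8084 with array weights and 7272 with a replicate block, against 7371. Whether the replicate numbers pair the samples is not known. With all 24 libraries in the fit, whose KO anti-PD-1 and KO LGG groups spread more, counts dropped to 4299 for the difference, 4262 for the KO effect, 4959 for KO against WT in IgG, 658 beyond 2-fold, 1155 for smaller changes in KO (2310 otherwise), 123 for larger changes in KO (409 otherwise), 389 for opposite directions (1122 otherwise), 490 for calls in KO alone (986 otherwise) and 36 for equal changes (106 otherwise). The comparison in the other 12 libraries gave 7989 genes without 3 libraries and 3053 with them. Leaving out each library in turn gave 6889 to 7605 genes for the difference, 6732 to 7690 for the KO effect, 8892 to 9581 for the WT effect, 9180 to 9852 for KO against WT in the combination, 7573 to 8437 in IgG and 957 to 1056 beyond 2-fold. By pattern it gave 2332 to 2679 for calls in WT alone, 2028 to 2335 for smaller changes in KO, 324 to 517 for larger ones, 932 to 1212 for opposite directions, 866 to 1041 for calls in KO alone and 91 to 105 for equal changes. Of 204 named genes, 186 had a called difference, and 170 kept call and direction under every setting. On the scale of normalised counts, 3.1% of called differences turn sign. Genes near 10 normalised counts rest on few reads, and their fold changes are the least precise.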
